A study of Fukomys damarensis and Heterocephalus glaber and Mus musculus with 160 samples.

Results

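Some regulatory regions of the naked mole-rat carried the histone marks of an active enhancer in 1 organ and the mark of a primed enhancer in the other. Of 140338 active and primed regions called in the liver and heart, 4747 were of this kind. They comprised 2220 regions active in the liver and primed in the heart, of 46895 liver-active regions, and 2527 regions active in the heart and primed in the liver, of 15146 heart-active regions. The regions were chosen by the measured peak lists themselves. A region was active when a consensus H3K27ac region overlapped consensus H3K4me1 and no consensus H3K4me3, and primed when consensus H3K4me1 overlapped neither other mark. A consensus region of a tissue and mark joined peaks that overlapped a peak of another animal. Every overlap had to cover at least 50% of the shorter region.

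H3K4me1 is laid down on the nucleosomes flanking enhancers, often before they are used, and enhancers that carry it without acetylation are called primed. H3K27ac is deposited by the acetyltransferases CBP and p300 on enhancers and promoters that are in use, and H3K4me3 is the mark of promoters. A primed region in one tissue can be an active enhancer in another tissue or at another time. CEBPA, FOXA1, HNF4A and RXRA are transcription factors of hepatocytes: FOXA1 opens compact chromatin, CEBPA and HNF4A maintain hepatocyte genes, and RXRA is the shared partner of many nuclear receptors.

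The study profiled histone marks by chromatin immunoprecipitation and sequencing (ChIP-seq) in the liver and heart of 4 rodent species, to follow how regulatory regions evolved in the mole-rats. Only the naked mole-rat is used here. All its animals were wild-type adult males of 13 to 17 months, named NMR30, NMR31, NMR32, NMR34 and NMR35. Each library came from whole diced organ of 1 animal, so cell types within an organ, and fewer cells with a mark or less mark per cell, cannot be told apart. The liver had 5 libraries of each mark, 1 per animal. The heart had H3K27ac from NMR31, NMR32 and NMR35, H3K4me1 from NMR30, NMR31 and NMR32, and H3K4me3 from NMR31, NMR32, NMR34 and NMR35. The 4 factors were profiled in the liver of NMR30 and NMR35, giving 8 factor libraries.

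The lists held 87316 to 131043 H3K27ac peaks in either organ and 132759 to 180145 H3K4me1 peaks in the liver. Heart H3K4me1 was thinner, with 110851 peaks in NMR30, 63590 in NMR31 and 42957 in NMR32. The library labelled liver H3K4me3 of NMR30 stood apart, with 253457 peaks against 27591 to 48726 in the other 4. Without it the regions numbered 2233 and 2527, and none of the tests below changed side of the 0.05 threshold on the adjusted p. Cell-type marker genes and the genes near the regions were not analysed here, since no gene annotation of the build HetGla_1.0 was used.

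The liver-active, heart-primed regions were 4.73% of all liver-active regions (Wilson 95% interval 4.55% to 4.93%, counting error only). Their partners were 2136 of 17115 heart-primed regions, or 12.5%. The heart-active, liver-primed regions made up 16.7% of all heart-active regions (16.1% to 17.3%), and their partners were 2728 of 61182 liver-primed regions, or 4.46%. These shares are set by the lists that chose the regions and have no test. The rule itself keeps the sets nearly separate, since a liver-primed region overlaps no consensus liver H3K27ac. Between them, 4 regions of the first shared 50% or more with a region of the second.

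The rule asks for overlap with a primed region and does not forbid a further region of the other organ within a long member. Among the liver-active, heart-primed regions, 1998 (90%) had consensus H3K4me1 alone in the heart, and 217 (9.77%) also overlapped consensus heart H3K27ac. Among the heart-active, liver-primed regions, 2067 (81.8%) had H3K4me1 alone in the liver, and 460 (18.2%) also overlapped consensus liver H3K27ac. A wholly active region of the other organ overlapped 123 of the first set (5.54%) and 332 of the second (13.1%). Among all active regions it overlapped 6072 of 46895 liver-active and 4845 of 15146 heart-active ones. The rule asks for a primed region, so nothing is read from these shares.

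Read library by library under the same overlap rule, no heart H3K27ac library had a peak at 1196 of the 2220 liver-active, heart-primed regions (53.9%), beside 67.5% of all liver-active regions. A peak was present in 1 of 3 heart libraries at 650, in 2 at 193 and in all 3 at 181 (8.15%, beside 17.7% of all liver-active regions). The share with a peak in a given heart library was 23.2% to 24.1%, close to the 24.5% to 25.5% of all liver-active regions, which include those active in both organs. No liver H3K27ac library had a peak at 1144 of the 2527 heart-active, liver-primed regions (45.3%), beside 41.8% of all heart-active regions. At 664 regions 1 of 5 liver libraries had one, and at 238 all 5 had one (9.42%, beside 24% of all heart-active regions). Counting any touching peak, 1084 and 1091 regions had none. The rule used these lists, so nothing is read from these shares.

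**Figure D1:**
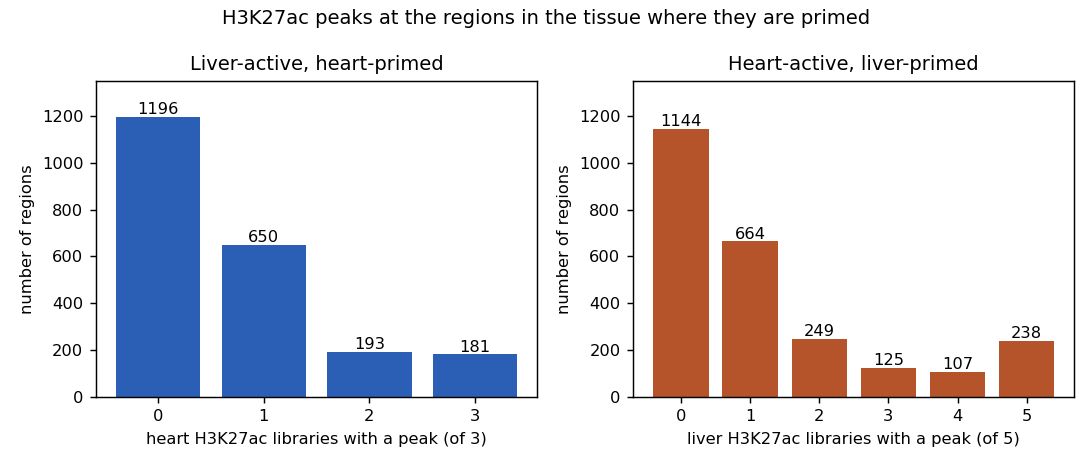
Number of regions (vertical axis) by how many H3K27ac libraries of the primed organ had a peak there (horizontal axis), for liver-active, heart-primed regions in 3 heart libraries (left) and heart-active, liver-primed regions in 5 liver libraries (right). The tallest bar of each panel is at 0 libraries, with 1196 and 1144 regions.

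On the active side, liver H3K27ac was found in 5 of 5 libraries at 927 of the liver-active, heart-primed regions (41.8%, beside 40.1% of all liver-active regions) and in 2 of 5, the fewest a consensus allows, at 609 (27.4%). By library it was present at 66.0% in NMR30, 80.1% in NMR31, 74.0% in NMR32, 63.7% in NMR34 and 87.0% in NMR35. All liver-active regions gave 69.7%, 81.8%, 73.4%, 62.4% and 83.2% in that order, close to these values. The order follows the peak numbers only in part, with NMR35 highest in both, NMR30 lowest in peaks and NMR34 lowest in share. Heart H3K27ac was found in 3 of 3 libraries at 1872 of the heart-active, liver-primed regions (74.1%, beside 71.5% of all heart-active regions), and by library at 92.8% in NMR31, 90.03% in NMR32 and 91.2% in NMR35, against 92.04%, 89.6% and 89.9% at all heart-active regions.

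H3K4me1, the mark that both organs shared at these regions, was present at the liver-active, heart-primed regions in 82.5% to 94.1% by liver library, against 75.1% to 88.3% at all liver-active regions. In the heart it was present at 90.1% in NMR30, 70.4% in NMR31 and 48.3% in NMR32. The heart values fall in the order of the peak numbers of those 3 libraries. The heart-active, liver-primed regions had heart H3K4me1 at 94.97% in NMR30, 84.5% in NMR31 and 66.3% in NMR32, in the same order and close to the 93.8%, 80.6% and 62.6% of all heart-active regions. Their liver H3K4me1 was at 63.0% to 82.1%, against 45.3% to 53.6% at all heart-active regions, a difference the rule itself makes.

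The authors' fold enrichment of a peak over background describes how strong the marks were where a peak was called. Median liver H3K4me1 fold at the liver-active, heart-primed regions was 7.59 to 8.79 by library, against 6.36 to 7.34 at all liver-active regions. Regions active in both organs had 7.18 to 8.11. Liver H3K27ac at the heart-primed ones was 6.15 to 7.33, a range much like the 6.13 to 6.94 of all liver-active regions. Their heart H3K4me1 was 4.79 to 4.93. At the heart-active, liver-primed regions heart H3K27ac was 6.76 to 7.02 against 6.50 to 6.67 at all heart-active regions. Heart-active regions also active in the liver had 7.60 to 7.86. Liver H3K4me1 at the liver-primed ones was 5.13 to 5.77, below the 7.30 to 8.43 at those also active in the liver. Where an H3K27ac peak was called in the primed organ its median fold was 4.85 to 4.99 in the heart and 5.12 to 5.88 in the liver. All these folds come from the lists that chose the regions and are descriptions only.

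The regions of the opposite directions differed in size. The median width was 688 bases for liver-active, heart-primed regions and 1318 bases for heart-active, liver-primed regions. All liver-active and heart-active regions had medians of 634 and 1092 bases. The members with H3K4me1 alone in the other organ had medians of 634 and 1028 bases, not above those backgrounds. The primed partners of the 2 full sets had medians of 817 and 742 bases. Of the heart-active regions 36.4% were narrower than their partner, and of the liver-active regions 56.9% were. The centres of region and partner lay a median of 259 and 348 bases apart.

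Close to the overlap limit, 114 liver-active regions overlapped a heart-primed region by 40% to under 50% of the shorter and stayed out, and 146 overlapped by 50% to under 60% and came in. Their median widths were 750 and 654 bases, and their mean liver H3K27ac folds had medians of 4.60 and 4.42 when a library without a peak counts as 0. For heart-active regions the numbers were 78 outside and 111 inside, with median widths of 1023 and 897 bases and fold medians of 5.73 and 5.06.

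To see the marks in libraries that took no part in the choice, each animal was left out in turn, the regions were chosen again from the other animals, and the share with a peak was read in the left-out animal. This gave 665 to 2350 liver-active, heart-primed and 1275 to 2386 heart-active, liver-primed regions. Liver H3K27ac was found at the first set in 64.2% (NMR30), 74.0% (NMR31), 70.6% (NMR32), 61.0% (NMR34) and 83.0% (NMR35). Heart H3K27ac was found there in 38.9% (NMR31), 37.2% (NMR32) and 37.6% (NMR35). Every left-out liver library was above every heart library. The means were 70.6% ± 8.63 (SD, n = 5) and 37.9% ± 0.880 (SD, n = 3), a difference of 32.7 points (two-sided exact permutation test, p = 0.0179, the smallest possible; Benjamini-Hochberg adjusted over 4 tests, 0.0238). The regions were chosen in the other animals for this H3K27ac difference, so the test asks only whether it recurs in left-out animals. Each library also helped choose the regions read in other animals, so the values are not independent, although the test treats them so. Both limits hold for H3K27ac in the other direction, and the second for H3K4me1.

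The heart-active, liver-primed regions showed the opposite order in left-out animals. Heart H3K27ac was found in 88.3% (NMR31), 86.6% (NMR32) and 87.1% (NMR35), and liver H3K27ac in 26.4% (NMR30), 35.6% (NMR31), 33.1% (NMR32), 23.7% (NMR34) and 48.4% (NMR35). The groups did not overlap. Liver was lower by 53.9 points (liver mean 33.4% ± 9.67, SD, n = 5; heart mean 87.3% ± 0.879, SD, n = 3; exact permutation test, adjusted p = 0.0238).

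H3K4me1 was read in the same way. At the liver-active, heart-primed regions liver libraries gave 83.9% to 94.1% and heart libraries 79.4% (NMR30), 55.0% (NMR31) and 39.2% (NMR32), so no heart library reached the liver range. The mean difference was 32.4 points (exact permutation test, n = 5 and 3, adjusted p = 0.0238), and the heart values again lie in the order of peak numbers. When the histone lists were given equal peak numbers, this difference kept its sign and its adjusted p stayed below the threshold. How much of the difference came from peak number was not tested. At the heart-active, liver-primed regions liver gave 61.2% to 79.9% around a mean of 72.0%, and heart gave 92.2%, 77.0% and 61.9% around a mean of 77.0%. These ranges overlapped, and liver minus heart was -5.06 points (exact permutation test, n = 5 and 3, p = 0.536). The difference between the directions was not tested.

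Restricted to the 3 animals that had the mark in both organs, the paired differences were 38.0 points for H3K27ac and 30.8 points for H3K4me1 at the liver-active, heart-primed regions. At the heart-active, liver-primed regions the paired H3K27ac difference was -48.3 points. With 3 pairs the exact test cannot go below 0.25, and the adjusted p was 0.333 for each. Library names fall into series with the prefixes do and vl, and the do series has 1 heart library of each of these marks. Within the do series, with that lone heart library, the 3 differences were 33.9, 13.8 and -52.0 points, and within the vl series 31.1, 38.9 and -56.5 points.

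In left-out animals, H3K27ac of the primed organ was found at these regions more often than at regions unmarked there, and less often than at regions active there. Left-out heart H3K27ac was found at 7.13% ± 0.337 (SD, n = 3) of liver-active regions without any heart mark, 37.9% ± 0.880 of the heart-primed ones and 92.1% ± 0.971 of those active in both organs. For left-out liver H3K27ac the means were 7.81% ± 4.51 (SD, n = 5) at heart-active regions without any liver mark, 33.4% ± 9.67 at the liver-primed ones and 85.2% ± 7.06 at those also active in the liver. All 3 heart libraries and all 5 liver libraries showed this order. The unmarked class excludes consensus H3K27ac of the other organ and these sets do not, so part of the step is built into the classes. Among regions with H3K4me1 alone in the primed organ, left-out H3K27ac averaged 32.5% ± 0.848 (SD, n = 3) in the heart and 20.8% ± 11.1 (SD, n = 5) in the liver. Each library kept the order, but the liver range of 10.3% to 38.2% overlapped the 2.44% to 13.5% of the unmarked class. These steps were not tested, since paired libraries cannot give a p below 0.25 in the heart or 0.0625 in the liver. Choosing with 1 animal fewer also leaves heart H3K27ac with 2 libraries, so a peak must be in both to make a consensus.

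**Figure D2:**
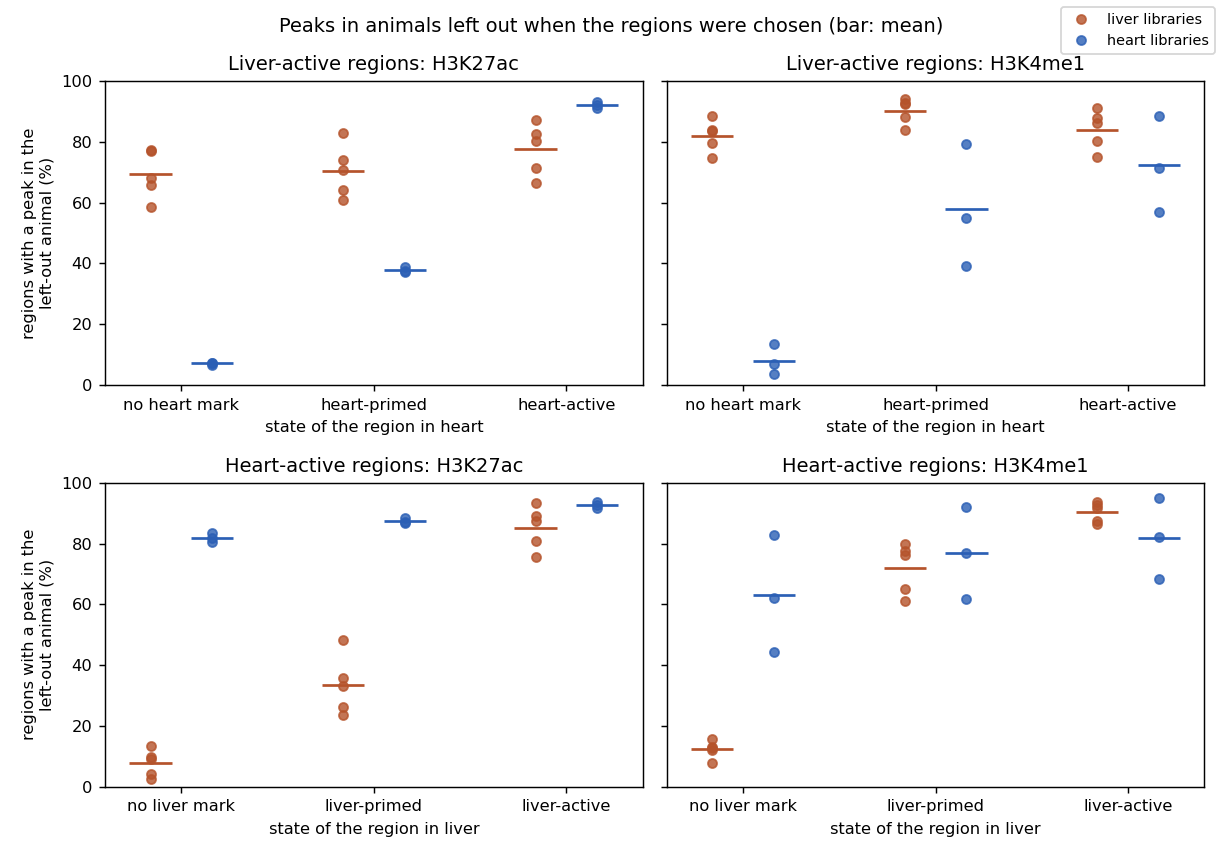
Percent of regions with a peak in the left-out animal (vertical axis, 0 to 100) for liver-active regions (top) and heart-active regions (bottom), H3K27ac (left) and H3K4me1 (right), by the region's state in the other organ. Each point is 1 library and each bar the mean. H3K27ac in the primed organ averages 37.9% in the heart and 33.4% in the liver, between the unmarked and the active regions.

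The same pattern can be asked for inside 1 animal, since NMR31 and NMR32 had all 3 marks in both organs. Applied to the single lists of NMR31, the rule found 2681 liver-active, heart-primed regions, 5.43% of the 49394 liver-active regions of that animal. These covered 888 of the 2220 consensus regions (40%). In the other direction the rule found 2878, 13.8% of 20847 heart-active regions, covering 898 of 2527 (35.5%). In NMR32 it found 1702 (3.31% of 51447) and 2673 (17.9% of 14948) regions, covering 562 (25.3%) and 940 (37.2%). Both animals alone gave 244 (10.99%) and 396 (15.7%) of the consensus regions, and neither gave 1014 (45.7%) and 1085 (42.9%). These animals are among those that chose the regions, so the counts describe how often 1 animal carried the whole pattern.

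The liver factor libraries played no part in the choice. At the liver-active, heart-primed regions CEBPA peaks overlapped 26.9% (NMR30) and 22.3% (NMR35), FOXA1 9.59% and 14.7%, HNF4A 2.97% and 12.8%, and RXRA 10.5% and 18.6%, in the same animal order. All liver-active regions gave 26.0% and 21.0%, 8.20% and 14.0%, 2.24% and 9.41%, and 7.53% and 14.1% in that order. There, as here, CEBPA was highest in both animals, and its lists were the longest, with 122941 and 84760 peaks. HNF4A of NMR30 was the lowest of the 8 libraries in both region sets, and also at the heart-active, liver-primed regions. Its list held 47577 peaks against 26218 for RXRA of the same animal.

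At the heart-active, liver-primed regions CEBPA overlapped 16.2% (NMR30) and 12.03% (NMR35), FOXA1 5.86% and 5.94%, HNF4A 2.69% and 6.37%, and RXRA 4.67% and 10.1%. All heart-active regions, which include those active in both organs, gave 17.2% and 13.3%, 6.84% and 7.63%, 2.87% and 9.09%, and 6.93% and 13.8% in that order. They were higher in every library. All 8 libraries were lower at the heart-active, liver-primed than at the liver-active, heart-primed regions. The means were 14.8% and 7.98%, a difference of 6.82 ± 3.53 points (SD, n = 8; two-sided exact sign-flip permutation test, adjusted over 5 tests, p = 0.0130). The smallest difference was 0.282 points, for HNF4A of NMR30. These 8 libraries come from 2 animals, and over animals alone no p below 0.5 is possible. The p-values of the factor tests therefore measure the spread between libraries. Those libraries cover 4 different factors, which the tests treat as replicates.

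Against heart-active regions without any liver mark, liver-primed ones were overlapped more often by every factor library. In every library the liver-primed ones stayed below all heart-active regions. The unmarked regions gave 5.81% and 3.34% for CEBPA, 3.22% and 1.18% for FOXA1, 2.12% and 4.23% for HNF4A, and 0.806% and 2.55% for RXRA, NMR30 first. The ratio of the primed to the unmarked class ran from 1.27 for HNF4A of NMR30 to 5.79 for RXRA of NMR30, with a median of 3.19. The mean difference was 5.07 ± 3.46 points (SD, n = 8; exact sign-flip permutation test, adjusted p = 0.0130). The primed class was wider, 1318 against 866 median bases. When only a factor summit inside a 500-base window centred on the region counted, the difference was 1.25 points (7 of 8 libraries higher, adjusted p = 0.0521 by the same exact test). Among the regions with H3K4me1 alone in the liver it was 2.74 points (7 of 8 libraries higher, exact test, adjusted p = 0.0391). With the overlap set at 50% of the longer region, it was 0.0355 points (exact test, adjusted p = 0.898).

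A heart-active, liver-primed region was also compared with liver-primed regions that had no heart mark. Over whole regions 7.98% against 6.34% were overlapped, a difference of 1.63 ± 1.70 points (SD, n = 8; 7 of 8 libraries higher; exact sign-flip permutation test, adjusted p = 0.0391). This direction did not survive other ways of measuring. In the 500-base window around the centre the difference was -1.55 points, and for regions with H3K4me1 alone in the liver -0.70 points. With the liver-primed partner measured in place of the heart-active region it was -1.07 points. The heart-active regions had a median width of 1318 bases and the liver-primed ones without a heart mark 660 bases.

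Liver-active regions showed a small difference by heart state. The heart-primed ones were overlapped at a mean of 14.8% and those without any heart mark at 12.7%, higher by 2.14 ± 2.23 points in 8 of 8 libraries (SD, n = 8; exact sign-flip permutation test, adjusted p = 0.0130). RXRA carried most of it, with ratios of 1.54 and 1.51 in NMR30 and NMR35, followed by HNF4A with 1.34 and 1.42, while CEBPA stood at 1.01 and 1.04. Whether factors differed from each other was not tested. The call ended for regions with H3K4me1 alone in the heart (0.27 points, exact test, adjusted p = 0.727), and in the 500-base window around the centre the sign turned (-0.29 points, exact test, adjusted p = 0.258). The median widths were 688 and 604 bases. Against regions active in both organs, at 13.7%, the heart-primed regions differed by 1.13 points with 6 of 8 libraries higher (exact sign-flip permutation test, adjusted p = 0.0938). The exceptions were RXRA of NMR30 and NMR35, at 10.5% and 18.6% of the heart-primed regions against 10.6% and 20.7% of those active in both. The higher RXRA share is thus not particular to the heart-primed regions.

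**Figure D3:**
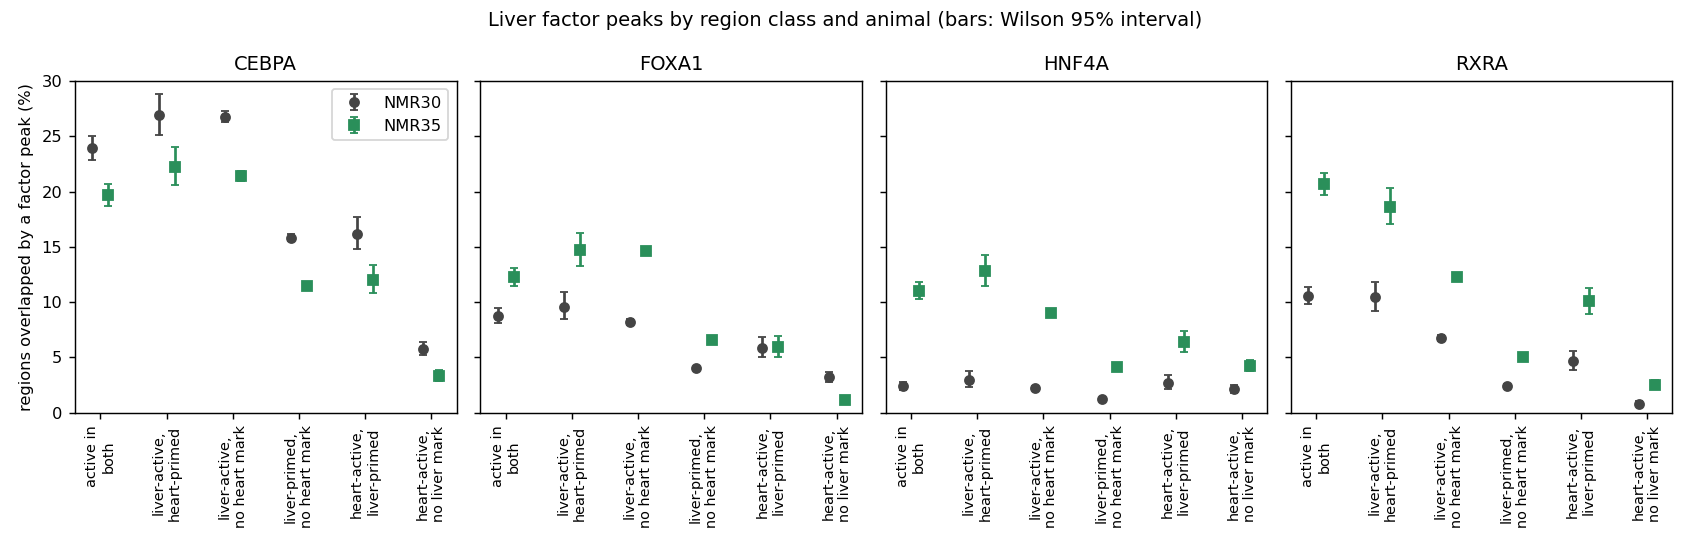
Percent of regions overlapped by a peak of each liver factor (vertical axis, 0 to 30) in 6 region classes, for NMR30 (circles) and NMR35 (squares), with Wilson 95% intervals. Every factor library is higher at liver-active, heart-primed than at heart-active, liver-primed regions, by 0.282 to 10.8 points. All but the HNF4A libraries are lowest at heart-active regions with no liver mark.

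Counting regions, 517 of the 2220 liver-active, heart-primed regions (23.3%) had a peak of at least 1 factor in both animals, beside 20.8% of all liver-active regions. In the other direction 264 of 2527 (10.4%) did, beside 13.2% of all heart-active regions, a background that includes the regions active in both organs. At least 2 factors were found in both animals at 170 (7.66%, beside 5.27% of all liver-active regions) and 65 (2.57%, beside 4.47% of all heart-active regions). No factor library had a peak at 1193 (53.7%, beside 54.4%) of the liver-active and 1675 (66.3%, beside 65.3%) of the heart-active regions. The shares for at least 1 factor and for none stand close to their background and say little about these regions in particular. For at least 2 factors, regions active in both organs had 436 of 6072 (7.18%). The 7.66% is thus not particular to the liver-active, heart-primed regions.

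Regions were placed against promoters, taken as consensus H3K27ac with H3K4me3. The median distance from a liver-active, heart-primed region to the nearest liver promoter on its scaffold was 14870 bases, against 17683 bases for all liver-active regions. For heart-active, liver-primed regions it was 24013 bases to a heart promoter, against 23673 for all heart-active regions. A region of the opposite direction lay within 100 kb of 37.1% of the first set and 37.8% of the second. The corresponding shares were 27.3% for all liver-active and 37.9% for all heart-active regions, so the heart-active set stood at its background. Liver-active regions also active in the heart had 62.0%, and those without a heart mark 18.5%. Heart-active regions also active in the liver had 51.3%, and those without a liver mark 24.7%. Members were found on 767 and 743 scaffolds. No distance was tested.

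Some 1 Mb windows held many regions of 1 direction. The first 1 Mb of scaffold JH166354.1 held 20 liver-active, heart-primed regions among 69 liver-active regions, or 29.0%. By number, the heart-active, liver-primed regions were led by the third 1 Mb of JH167272.1, with 14 of 65 heart-active regions (21.5%), and the second of JH167588.1, with 14 of 43 (32.6%). The first 1 Mb of JH167379.1 followed with 13 of 27, at 48.1% the highest share among the 5 windows with most such regions. The windows were chosen by these counts, so they are descriptions.

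A stricter subset had peaks of every library of the expected marks and no H3K27ac peak in any library of the primed organ. It held 89 liver-active, heart-primed regions, 54 of them without an H3K4me3 peak in any library, and 106 heart-active, liver-primed regions, 68 of them without H3K4me3. The regions described next come from those 54 and 68, ranked by mean H3K27ac fold in the active organ. Their folds are the authors' values and are descriptive.

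The top liver-active, heart-primed region, JH173407.1:1328100-1331487 (3388 bases), had liver H3K27ac folds of 17.9, 17.5, 39.0, 20.4 and 34.6 in NMR30, NMR31, NMR32, NMR34 and NMR35 (25.9 ± 10.1, SD, n = 5). Its liver H3K4me1 was 8.96 to 12.1, its heart H3K4me1 was 5.82, 4.64 and 3.93 in NMR30, NMR31 and NMR32, and no heart library had H3K27ac. The heart-primed partner lay inside it, at 1329440 to 1331264. CEBPA bound it in both animals at folds of 28.8 and 29.4, with no peak of the other 3 factors.

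The next region, JH167379.1:392872-396105, had liver H3K27ac folds of 21.0, 17.7, 31.9, 15.1 and 30.2 and heart H3K4me1 of 4.79, 3.51 and 3.95. No factor library had a peak there. It lies in the same 1 Mb window of JH167379.1 that held the 13 heart-active, liver-primed regions. The third, JH169790.1:131507-133660, had the largest SD of the 10, with liver H3K27ac from 12.4 in NMR31 to 40.8 in NMR35. Its only factor peak was RXRA of NMR35, at a fold of 10.4.

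Further down the list, JH174065.1:7308-10133 carried the most factor peaks of the 10, with CEBPA at 28.4 and 9.39, FOXA1 at 13.9 and 12.4 in NMR30 and NMR35, and HNF4A and RXRA in NMR35 only. Its liver H3K27ac averaged 11.9 ± 2.80 (SD, n = 5). At JH169900.1:3413797-3415032 heart H3K4me1 reached 9.45 in NMR30, the highest heart H3K4me1 fold among the 10, with 5.19 and 5.25 in NMR31 and NMR32, and CEBPA was present in both animals at 12.9 and 9.53.

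The top heart-active, liver-primed region, JH173936.1:1211065-1212848 (1784 bases), had heart H3K27ac folds of 31.3, 17.4 and 17.0 in NMR31, NMR32 and NMR35 (21.9 ± 8.17, SD, n = 3). Its heart H3K4me1 was 3.73, 6.10 and 3.93 in NMR30, NMR31 and NMR32. Liver H3K4me1 was 5.13, 4.83, 3.73, 5.55 and 4.74 in NMR30, NMR31, NMR32, NMR34 and NMR35, as high as in the heart. No liver library had H3K27ac and no factor had a peak. The partner began upstream of it, at 1210071, and ended inside it at 1211616.

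The second, JH171133.1:2365085-2371498 (6414 bases), had heart H3K27ac of 24.8, 21.2 and 17.0 and the highest liver H3K4me1 of the 10, at 9.67, 5.45, 10.7, 14.1 and 16.5. RXRA overlapped it in both animals, at folds of 4.71 and 6.01, the only 1 of the 10 with a factor in both. The third, JH171109.1:1391958-1396773, had heart H3K27ac of 18.9, 23.0 and 15.2, liver H3K4me1 of 3.48 to 6.38 and no factor peak. The other 7 had mean heart H3K27ac folds of 12.02 to 15.4 and at most 1 factor library with a peak each.

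**Figure D4:**
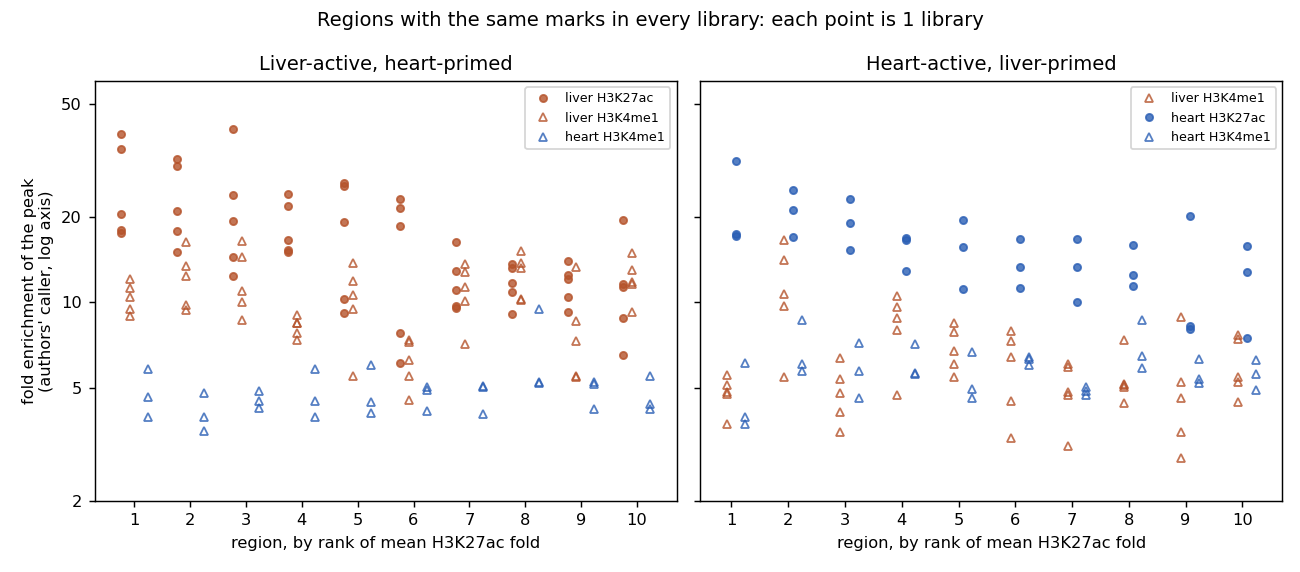
Fold enrichment given by the authors' peak caller (vertical log axis) at the 10 regions of each direction with the highest mean H3K27ac fold among those marked alike in every library (horizontal axis, by rank). Each point is 1 library. H3K27ac of the active organ (filled circles) reaches 40.8 in the liver and 31.3 in the heart, and H3K4me1 of the primed organ (open triangles) stays at or below 9.45 in the heart and 16.5 in the liver.

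Of the 2220 liver-active, heart-primed regions, 9 (0.405%) had peaks in all 8 factor libraries. Among all liver-active regions 94 of 46895 (0.2004%) did. Among regions active in both organs 23 of 6072 (0.379%) did, close to the share of the heart-primed ones. These shares were not tested. A second list took the 5 liver-active, heart-primed regions with most factor libraries, and all 5 had peaks in all 8. The top one, JH170413.1:637151-641482 (4332 bases), had liver H3K27ac folds of 36.5, 18.5, 35.9, 28.0 and 37.9 (31.3 ± 8.17, SD, n = 5), CEBPA at 20.9 and 40.4, FOXA1 at 4.07 and 13.3, HNF4A at 6.87 and 9.91 and RXRA at 18.6 and 14.5 in NMR30 and NMR35. Heart H3K4me1 was 5.54 and 4.03 in NMR30 and NMR31 with no peak in NMR32, and no heart library had H3K27ac.

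The other 4 were less clean in the heart. JH171544.1:1756860-1762094 had heart H3K27ac in all 3 libraries at 6.25, 7.28 and 5.11, beside liver folds of 23.0 to 34.9. JH171633.1:385052-391839 had it in 2 libraries and JH169012.1:1172644-1175973 in 1. JH171109.1:1727749-1737442, the longest at 9694 bases, had heart H3K27ac at 7.13, 8.11 and 6.03 and a heart-primed partner of 1857 bases. The rule lets heart H3K27ac peaks and a heart-primed partner overlap the same long liver-active region. The positions of these peaks and partners relative to each other were not examined.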

How the data were processed

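ChIP-seq peak lists of naked mole-rat liver and heart were used, 25 of histone marks and 8 of liver factors. Per the submitters' processing notes, the authors called peaks with MACS2. Its version, and any aligner, were not given in the sources used here. Depth cannot be read from peak lists. The histone lists name the build HetGla_1.0 per the file names, and the factor lists use the same scaffold names. Fold enrichment was deposited as a ratio on a linear scale and used to describe and rank peaks. The deposited −log10 q was 1.30 or more in every list and served as a filter in alternatives. The deposited −log10 p-value and score were not used. Each list comes from 1 library of 1 animal.

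Touching peaks within a list were merged, and consensus, active and primed regions were built by the 50% rule with 2 libraries required. Members and lists were chosen with earlier results of these data known. Replicates are animals named in the labels. Left-out shares were compared between liver and heart by two-sided exact permutation tests, adjusted over 4. Factor shares were compared by exact sign-flip permutation tests over the 8 libraries, adjusted over 5. The adjusted p threshold was 0.05. The same animal gave both organs, so liver and heart libraries of NMR31, NMR32 and NMR30 or NMR35 form pairs, tested as a replicate block. Named regions were the 10 of each direction with the highest mean H3K27ac fold among those marked alike in every library, and the 5 liver-active ones with most factor libraries. A factor peak counted when it covered 50% of the shorter of peak and region. Alternatives were other overlap, q, peak-number and consensus settings, leaving out each library, single library series and 500-base windows. Region calling and the exact tests were tested on simulated peak lists. Sequence features, genes and cell-type markers planned for an annotated genome were not analysed here. Python 3.11.15, NumPy 2.4.6, SciPy 1.17.1, pandas 2.3.3 and Matplotlib 3.10.9 were used.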

Additional observations from a re-analysis of the deposited data

Results flagged for a closer look

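The library labelled liver H3K4me3 of NMR30 lay far from the other 4 liver H3K4me3 libraries, with 253457 deposited peaks against 27591 to 48726. When NMR30 was left out of the choice, its H3K4me3 peaks overlapped 21.7% of the heart-active, liver-primed regions, against 0.9504% to 3.23% in the other 4 animals. Of 17 groups of libraries examined for a value far from the rest, 2 stood out, and chance gives about 1 in 20.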

How the results depend on the processing

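The numbers of regions (2220 and 2527) depended on the settings: 520 and 544 with overlap of 50% of the longer, 1020 and 1313 with −log10 q of at least 4, 1111 and 603 with equal peak numbers, 786 and 1006 with 3 libraries required, and 905 and 1138 with no peak of the absent mark in any library. Leaving out 1 library gave 708 to 2977 and 1275 to 2976, the lowest without heart H3K4me1 of NMR30. Without heart H3K4me1 of NMR31 they were 1105 and 1645.

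The left-out liver minus heart difference kept its sign under every setting run, the do series with its 1 heart library included, for H3K27ac in both directions and for H3K4me1 at liver-active, heart-primed regions. Leaving out 1 library gave 25.6 to 38.4 and -53.9 to -49.9 points for H3K27ac and 8.85 to 34.6 points for H3K4me1. These calls were lost where libraries grew too few: in the replicate block (38.0, -48.3 and 30.8 points), the do series (33.9, -52.0 and 13.8), the vl series (31.1, -56.5 and 38.9), and without 1 heart library of the other mark. No value was possible where a heart library of the same mark was left out. The H3K4me1 difference of -5.06 points at heart-active, liver-primed regions turned to 10.98 with overlap of the longer, 0.66 at the stricter q, 5.49 with 3 libraries, 0.026 without liver H3K4me1 of NMR30 and 0.072 without that of NMR31. Leaving out 1 library gave -19.8 to 0.072.

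For factors, liver-active, heart-primed minus heart-active, liver-primed regions (6.82 points) lost its call only with overlap of the longer (0.50) and with means over animals or factors (6.82). Heart-active, liver-primed minus unmarked in liver (5.07) lost it with overlap of the longer (0.036), the 500-base window (1.25) and those means (5.07). Leaving out 1 library kept both calls, at 5.67 to 7.75 and 4.23 to 6.30. Liver-active, heart-primed minus unmarked in heart (2.14) turned to -1.22 with 1-base overlap, -0.86 with overlap of the longer and -0.29 in the window. Its call was lost at the stricter q (2.05), with equal histone (1.86) or factor (1.60) peaks, 3 libraries (2.92), no absent mark (0.95), H3K4me1 alone (0.27) and means (2.14). With 1 library left out it was 1.54 to 3.31, and 3 of 33 such runs lost the call (adjusted p up to 0.186). Its comparison with regions active in both (1.13) turned to -0.50 with overlap of the longer, -0.73 with H3K4me1 alone and -1.68 with equal peaks, and ranged from 0.51 to 1.92 with 1 library left out, where 4 of 33 runs gained a call. Heart-active, liver-primed minus liver-primed alone (1.63) turned to -0.057 with 1-base overlap, -0.22 with overlap of the longer, -0.0049 with equal peaks, -1.55 in the window, -0.70 with H3K4me1 alone, and -1.07 or, in the window, -1.20 at the partner. It lost its call at a stricter factor q (0.81), equal factor peaks (0.58) and means (1.63). With 1 library left out it was 0.68 to 2.97, and 9 of 33 such runs lost the call (adjusted p up to 0.438). The H3K4me1-alone and partner settings were chosen after seeing the data. The causes were not tested. Peak lists carry no depth, so an absent peak is not an absent mark.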
